A study of Homo sapiens with 40 samples.

Results

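The neuregulin genes NRG1, NRG2, NRG3 and NRG4 were examined for open chromatin in a series of 40 ATAC-seq libraries, an assay in which a transposase marks accessible DNA. Their regions were chosen by position alone. Peaks of the 40 deposited lists were merged where they overlapped by at least 1 bp, regions found in at least 2 lists were kept, and those whose midpoint lay in the body of a neuregulin gene or within 50 kb of either end were taken. This gave 23 of 71600 regions, of which NRG1 held 2, NRG2 held 8, NRG3 held 12 and NRG4 held 1. The libraries came from BT474, an established HER2-amplified breast cancer line that responds to trastuzumab, an antibody against HER2, and from BT474R, a clone (clone 5) derived from BT474 by growth in trastuzumab. Each line was serum starved and then either collected at 0 h (baseline, untreated) or given epidermal growth factor (EGF), heregulin (HRG) or water (vehicle, called control below) for 1, 12 or 24 h, with 2 libraries in each of the 20 groups. BT474R is a single clone, so resistance cannot be told apart from clonal or copy number differences between the lines. Each list held between 32479 and 56846 peaks and no read totals, so the depth behind a peak was unknown. Absence of a peak means that none was called, and closed chromatin was not shown by it.

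Neuregulins are growth factors with an EGF-like domain, most of them made as membrane-bound precursors that proteases release from the cell surface. NRG1 and NRG2 bind HER3 and HER4 (the products of ERBB3 and ERBB4), while NRG3 and NRG4 bind HER4, and ligand-bound HER3 and HER4 pair with HER2, the receptor that BT474 cells overproduce. The HRG added to the cells is a product of NRG1, so the series also shows the chromatin of the ligand genes themselves in cells given that ligand or EGF, a ligand of EGFR.

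The strength of a peak was read as its rank percentile, that is, the percentage of peaks of the same list that it outranked by score, with 0 given to a library without a peak. Regions were named by their gene and by the distance of their midpoint from the 5′ end of the gene in kb, and all coordinates refer to GRCh38. A promoter region lay within 1 kb of an annotated transcript start of the gene.

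Sequences at or beside the regions on which the results turn are shown first, because the lines differed at neuregulin promoters and at a few introns. Sequence before the start of NRG2 and NRG3 was taken from the RefSeq promoter table (GRCh38.p14), which held 3 of the 4 neuregulins, NRG1 being the missing entry. The bases directly before the start are printed, 250 for the first NRG2 start and for NRG3 and 243 for the second NRG2 start, in the direction of transcription. NRG2 promoter 1 lies at chr5:140043300-140043549 (minus strand), NRG2 promoter 2 at chr5:139904479-139904721 (minus strand) and the NRG3 promoter at chr10:81874944-81875193 (plus strand). The printed NRG2 promoter 1 and NRG3 promoter lie inside their open regions. Most of NRG2 promoter 2, with its marked motif match, lies outside the open region NRG2 +139.1 kb, which ends at chr5:139904525. Capitals mark matches on either strand to 6 motifs, listed with their frequencies further on.
NRG2 promoter 1: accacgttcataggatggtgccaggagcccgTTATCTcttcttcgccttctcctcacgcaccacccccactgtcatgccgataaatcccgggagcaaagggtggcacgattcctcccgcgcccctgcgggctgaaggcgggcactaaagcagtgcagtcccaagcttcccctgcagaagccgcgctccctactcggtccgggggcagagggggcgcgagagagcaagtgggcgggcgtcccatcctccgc
NRG2 promoter 2: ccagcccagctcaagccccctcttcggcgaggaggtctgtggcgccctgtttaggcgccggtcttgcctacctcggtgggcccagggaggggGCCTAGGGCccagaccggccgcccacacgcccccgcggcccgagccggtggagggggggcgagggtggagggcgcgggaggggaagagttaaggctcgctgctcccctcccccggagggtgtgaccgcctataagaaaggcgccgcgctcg
NRG3 promoter: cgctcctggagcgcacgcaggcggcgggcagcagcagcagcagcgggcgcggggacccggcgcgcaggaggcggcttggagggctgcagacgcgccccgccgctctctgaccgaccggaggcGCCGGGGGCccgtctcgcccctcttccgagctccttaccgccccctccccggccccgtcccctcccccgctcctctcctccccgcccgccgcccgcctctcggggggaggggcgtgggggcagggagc

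For 4 intronic regions, 201 bases centred on the summit are printed from the plus strand of GRCh38. They are the regions of NRG2 and NRG3 with peaks in 1 line alone in the most libraries, and the NRG2 region that differed between HRG and control. The windows are chr5:139878783-139878983 (NRG2 +164.4 kb), chr5:140011296-140011496 (NRG2 +31.9 kb), chr10:82037203-82037403 (NRG3 +162.1 kb) and chr10:82741638-82741838 (NRG3 +866.3 kb). All 4 lie in introns. Capitals again mark motif matches.
NRG2 +164.4 kb (peaks in BT474R alone): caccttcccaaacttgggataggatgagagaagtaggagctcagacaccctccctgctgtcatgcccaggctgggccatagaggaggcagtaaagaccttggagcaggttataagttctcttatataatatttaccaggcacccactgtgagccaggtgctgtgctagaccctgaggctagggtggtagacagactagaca
NRG2 +31.9 kb (HRG-BT474): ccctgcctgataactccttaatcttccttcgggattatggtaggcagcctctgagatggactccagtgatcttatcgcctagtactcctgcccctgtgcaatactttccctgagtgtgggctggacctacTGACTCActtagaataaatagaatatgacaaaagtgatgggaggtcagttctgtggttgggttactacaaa
NRG3 +162.1 kb (peaks in BT474 alone): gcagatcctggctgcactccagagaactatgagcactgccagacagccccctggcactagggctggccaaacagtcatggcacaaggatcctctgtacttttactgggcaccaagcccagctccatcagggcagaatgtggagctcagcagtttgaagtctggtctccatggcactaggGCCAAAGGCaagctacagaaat
NRG3 +866.3 kb (peaks in BT474R alone): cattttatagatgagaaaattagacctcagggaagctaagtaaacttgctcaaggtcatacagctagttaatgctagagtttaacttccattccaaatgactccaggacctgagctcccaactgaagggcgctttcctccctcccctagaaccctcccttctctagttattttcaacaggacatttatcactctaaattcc

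The 4 genes differed in how much open chromatin they carried. NRG1 spans chr8:31639222-32855666 (plus strand) and had 2 regions in a window of 1.32 Mb, 1.52 per Mb, against 23.6 per Mb over chromosomes 1 to 22 and X. No library had a peak within 1 kb of any of the 32 annotated NRG1 starts. NRG2 (chr5:139846779-140043299, minus strand) was the densest, with 27.0 regions per Mb, and 5 of its 6 starts had a peak within 1 kb in some library. NRG3 (chr10:81875194-82987179, plus strand) had 9.90 regions per Mb and a peak at 2 of its 7 starts. NRG4 (chr15:75935969-76059795, minus strand) had a peak at 0 of its 15 starts. Its only region lay outside the gene, at the promoter of the neighbouring gene FBXO22, which encodes an F-box protein, and says nothing of NRG4 itself.

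Of the 23 regions, 4 (17.4%) had a peak in all 40 libraries, against 35.1% of all 71600 regions. These 4 were NRG2 +74.4 kb, NRG2 +195.0 kb, NRG3 -0.3 kb and NRG4 +155.8 kb. The median width of the 23 regions was 482 bp, against 551 bp over all regions. Each BT474 library had a peak in 11 to 18 of the 23 regions (median 13), and each BT474R library in 6 to 17 (median 11.5). The 4 BT474R libraries of control and EGF at 12 h had 6 to 10 regions and lists of 32479 to 40331 peaks, the shortest of the series, and a control and an HRG library of 24 h also had 10 regions.

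**Figure D1:**
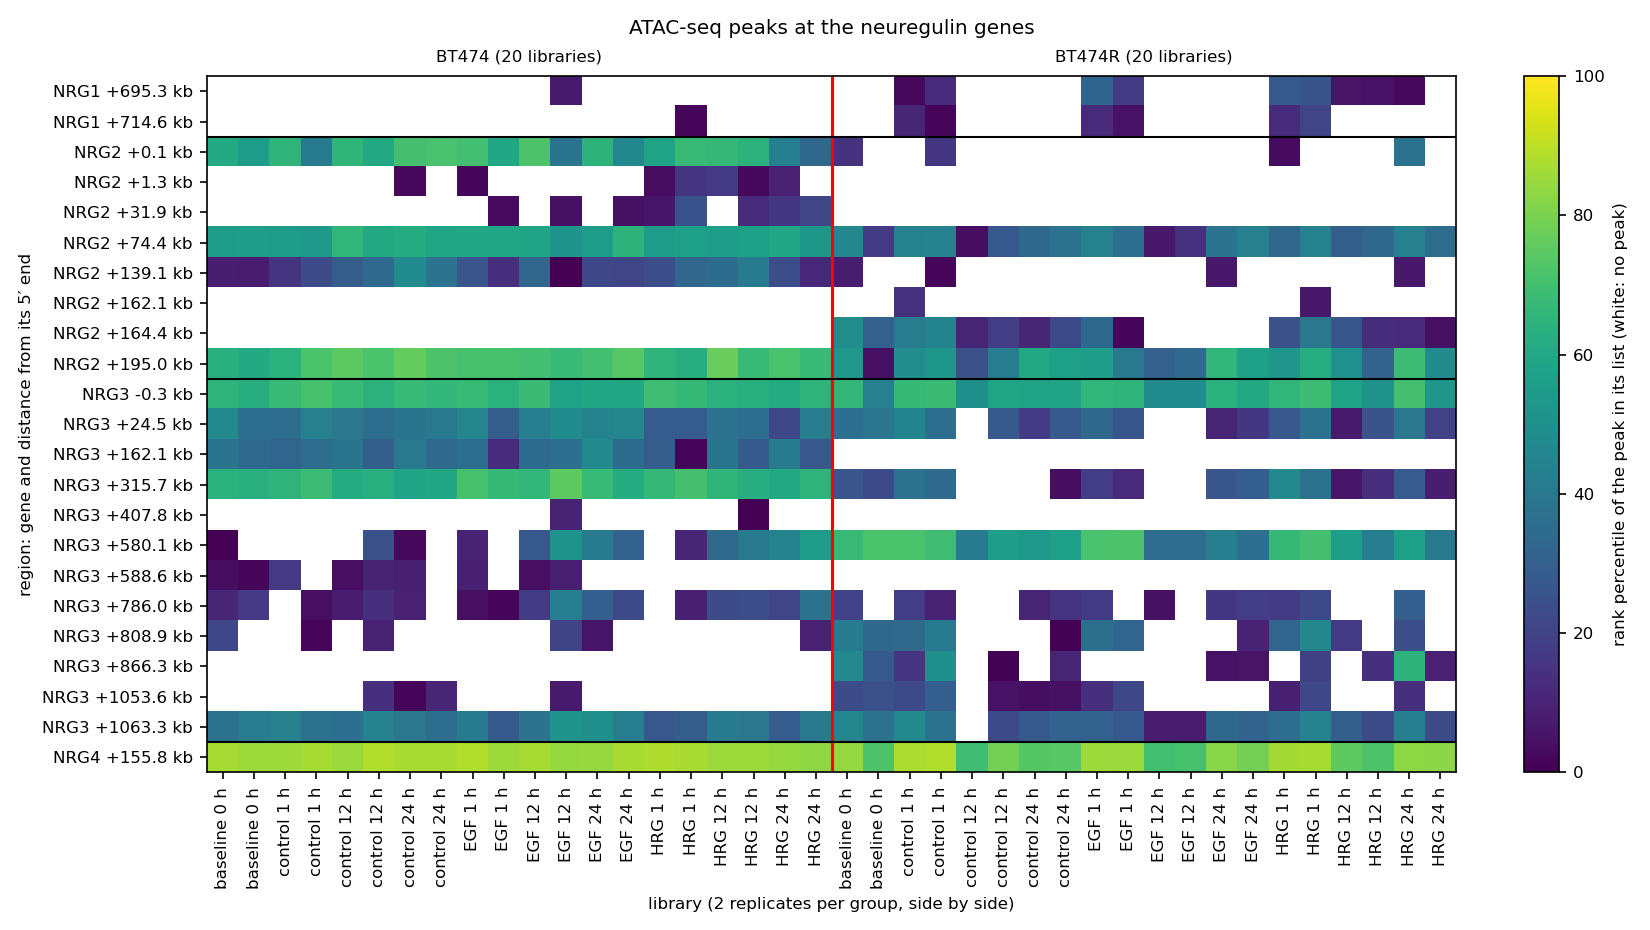
Rank percentile (color, 0 to 100) of the peak at each of the 23 neuregulin regions (rows, by gene and distance from its 5′ end in kb) in each of the 40 libraries (columns, by line, arm and time), with white where no peak was called. NRG1 was nearly empty apart from the BT474R libraries at 1 h, NRG2 +0.1 kb was filled in all 20 BT474 libraries and in 4 of 20 BT474R libraries, and NRG4 +155.8 kb was filled in all 40.

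The lines were compared first, to ask where the neuregulin loci of the resistant clone differed from those of its parent. The NRG2 promoters were open less often in BT474R, 6 NRG3 intronic regions differed at an unadjusted p under 0.05, 3 in each direction, and the NRG3 promoter was open in every library of both lines. When the counts of libraries with a peak (20 against 20) were put through Fisher's exact test, 15 of the 23 regions could reach an unadjusted p under 0.05, and 12 (80%) did, 5 with a peak in more BT474R libraries and 7 in fewer. Over all regions that could reach it, 79.3% did, with 30.3% in more BT474R libraries and 48.9% in fewer, so the neuregulin share was near the background. After Benjamini-Hochberg adjustment over all regions, 11 of the 15 regions that could be called passed, against 71.7% of all regions that could be called. Of the 12, only NRG3 +315.7 kb did not pass. In the baseline and control libraries alone (8 against 8) 7 of the 12 were called. With every list limited to its 32479 strongest peaks, 7 of the 14 regions that remained were called, 4 of them among the 12 (NRG2 +0.1 kb, NRG3 +162.1 kb, NRG3 +315.7 kb and NRG3 +580.1 kb).

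All 3 promoter regions of NRG2, which encodes a ligand of HER3 and HER4, had a peak in fewer BT474R libraries. The first promoter, the region NRG2 +0.1 kb at chr5:140042584-140043825, covers the first exon with its UTR and the start of the longest transcripts. In BT474 it had a peak in 20 of 20 libraries, with a percentile of 33.5 at the lowest, 62.7 at the median and 72.1 at the highest. In BT474R it had a peak in 4 of 20 libraries, with percentiles of 14.5 (baseline, replicate 1), 15.9 (control at 1 h, replicate 2), 3.04 (HRG at 1 h, replicate 1) and 37.8 (HRG at 24 h, replicate 1). The lists of those 4 libraries held 52162 to 55289 peaks. The longest BT474R lists, control at 1 h replicate 1 (56494) and HRG at 1 h replicate 2 (56334), had no peak there. The part of list length among the BT474R libraries was not tested. The highest of the 4 BT474R percentiles exceeded the lowest BT474 value, so the lines overlapped there, and the counts differed (Fisher's exact test, two-sided, p = 1.54e-07, adjusted p = 7.41e-07). With lists of equal length the counts were 18 of 20 in BT474 and 0 of 20 in BT474R (Fisher's exact test, p = 3.35e-09).

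The second NRG2 promoter, NRG2 +139.1 kb at chr5:139903898-139904525, serves a shorter transcript that begins inside the gene. BT474 had a peak there in 20 of 20 libraries, at percentiles of 0.331 to 48.2 (median 24.0), and BT474R in 4 of 20, at 1.32 to 7.52. The counts matched those of the first promoter (Fisher's exact test, p = 1.54e-07, adjusted p = 7.41e-07), and 3 of the 4 BT474R libraries were the same, with EGF at 24 h (replicate 1) in place of HRG at 1 h. This region was weak in both lines, and with lists of equal length it had a peak in 3 of 20 BT474 and 0 of 20 BT474R libraries (Fisher's exact test, p = 0.231). Another promoter region, NRG2 +1.3 kb in the first intron, had a peak in 7 of 20 BT474 libraries at percentiles of 1.40 to 17.1 and in 0 of 20 BT474R libraries (Fisher's exact test, p = 0.00832, adjusted p = 0.0133). Of the 7, 5 were HRG and 1 was an EGF library, and in baseline and control libraries alone the counts were 1 of 8 and 0 of 8 (Fisher's exact test, p = 1).

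Within the body of NRG2 the differences ran both ways. The intronic region NRG2 +164.4 kb (chr5:139878520-139879272) had no peak in any BT474 library. In BT474R it had a peak in 16 of 20 libraries, with percentiles of 1.90 to 49.5 where a peak was called (Fisher's exact test, p = 1.54e-07, adjusted p = 7.41e-07). The 4 BT474R libraries without it were the 4 EGF libraries of 12 and 24 h. It lay 7093 bp from the nearest annotated NRG2 start. With lists of equal length it had a peak in 4 of 20 BT474R libraries (Fisher's exact test, p = 0.106). The intronic region NRG2 +31.9 kb had the opposite pattern, with a peak in 8 of 20 BT474 libraries (percentiles of 2.83 to 25.1) and in 0 of 20 BT474R libraries (Fisher's exact test, p = 0.00328, adjusted p = 0.00585). None of those 8 was a baseline or control library.

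Regions with a peak in every library were compared by rank percentile with limma, with the condition (arm and time) in the fit. NRG2 +74.4 kb, an intronic region, lay between 51.8 and 65.7 in BT474 (median 56.3) and between 3.62 and 46.9 in BT474R (median 36.1), with no overlap between the lines. It was lower in BT474R by a difference of -24.6 percentile points (SE 2.77, limma adjusted p = 3.30e-09). NRG2 +195.0 kb, in the last exon with its UTR and at the promoter of the lncRNA ENSG00000250692, lay between 61.0 and 77.2 in BT474 and between 3.97 and 68.6 in BT474R (difference -22.4, SE 3.36, limma adjusted p = 6.07e-07). Over all 25166 regions compared in this way, 76.9% passed at an adjusted p under 0.05, 46.9% lower and 30.0% higher in BT474R, and the median difference was -1.51. All 4 neuregulin regions with a peak in every library were lower in BT474R, a count too small to set against that background.

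**Figure D2:**
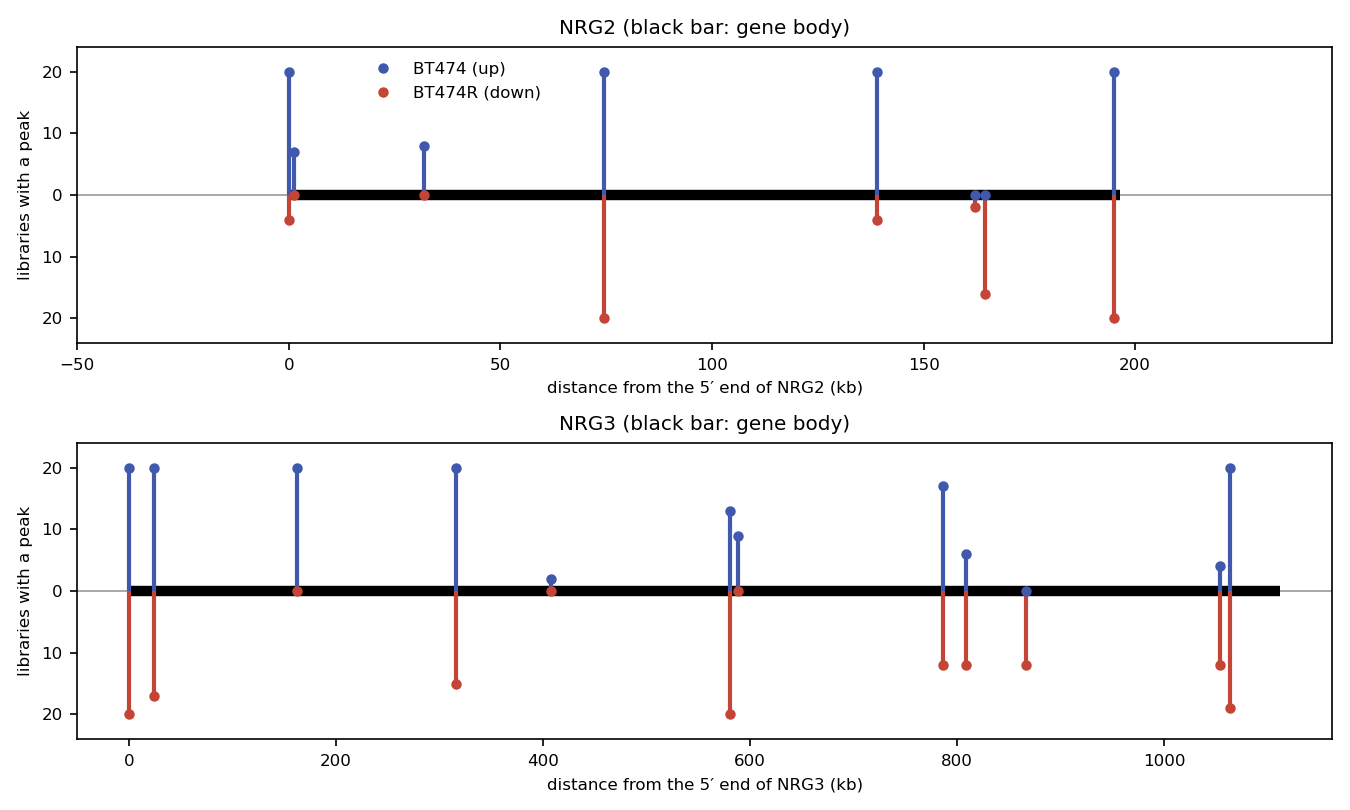
Number of libraries with a peak (vertical axis, BT474 upward and BT474R downward, 20 each) at each region of NRG2 (top) and NRG3 (bottom) by distance from the 5′ end of the gene in kb, the black bar being the gene body. The bars of the NRG2 promoters at 0.1 and 139.1 kb reach 20 upward and 4 downward, and the region at 164.4 kb has a bar in BT474R alone.

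The NRG3 promoter, NRG3 -0.3 kb at chr10:81874500-81875358, was open in all 40 libraries and is shared with the lncRNA ENSG00000287358. Its percentile lay between 57.8 and 70.9 in BT474 (median 65.0) and between 43.6 and 70.4 in BT474R (median 59.7), so the lines overlapped. The difference was -5.41 points (SE 1.70, limma adjusted p = 0.00510). With lists of equal length it was -1.67 and no longer called (limma adjusted p = 0.413).

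The smallest p of the 23 regions belonged to an NRG3 intron. NRG3 +162.1 kb (chr10:82037072-82037480) had a peak in 20 of 20 BT474 libraries, at percentiles of 1.91 to 47.9 (median 35.2), and in 0 of 20 BT474R libraries (Fisher's exact test, p = 1.45e-11, adjusted p = 1.91e-10). With lists of equal length the counts were 7 of 20 and 0 of 20 (Fisher's exact test, p = 0.00832). NRG3 +315.7 kb had a peak in 20 of 20 and 15 of 20 libraries (Fisher's exact test, p = 0.0471, adjusted p = 0.0597), but the percentiles separated the lines fully, at 58.2 to 75.2 in BT474 and 0 to 46.9 in BT474R. With lists of equal length its counts were 20 of 20 and 1 of 20 (Fisher's exact test, p = 3.05e-10), and in baseline and control libraries alone 8 of 8 and 5 of 8 (Fisher's exact test, p = 0.200). A weak peak at NRG3 +588.6 kb was present in 9 of 20 BT474 libraries (1.45 to 16.6) and 0 of 20 BT474R libraries (Fisher's exact test, p = 0.00123, adjusted p = 0.00244).

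Other NRG3 introns had more peaks in BT474R. NRG3 +580.1 kb had a peak in 20 of 20 BT474R libraries, at 35.8 to 71.9 (median 56.4), and in 13 of 20 BT474 libraries, where the values ran from 0 to 55.3 with a median of 10.2 (Fisher's exact test, p = 0.00832, adjusted p = 0.0133). NRG3 +866.3 kb (chr10:82741107-82741960), an intronic region 2958 bp from an internal NRG3 start, had a peak in 12 of 20 BT474R libraries at 0.660 to 64.8 and in 0 of 20 BT474 libraries (Fisher's exact test, p = 4.51e-05, adjusted p = 0.000125). With lists of equal length it had a peak in 4 of 20 BT474R libraries (Fisher's exact test, p = 0.106). NRG3 +1053.6 kb had a peak in 12 of 20 BT474R and 4 of 20 BT474 libraries (Fisher's exact test, p = 0.0225, adjusted p = 0.0318), and in baseline and control libraries alone in 7 of 8 and 3 of 8 (Fisher's exact test, p = 0.119).

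The remaining 6 NRG3 regions were not called between the lines. NRG3 +24.5 kb (20 of 20 BT474 and 17 of 20 BT474R libraries), NRG3 +1063.3 kb (20 and 19) and NRG3 +407.8 kb (2 and 0) could not reach the threshold, nor could the promoter with a peak everywhere. NRG3 +786.0 kb (17 and 12 of 20) and NRG3 +808.9 kb (6 and 12 of 20) could have reached it and did not (Fisher's exact test, p = 0.155 and p = 0.111). Among these regions 3 were called with lists of equal length, NRG3 +24.5 kb with a peak in 14 of 20 BT474 and 4 of 20 BT474R libraries (Fisher's exact test, p = 0.00364), NRG3 +1063.3 kb in 16 and 9 (p = 0.0484, Fisher's exact test) and NRG3 +808.9 kb in 0 and 6 (p = 0.0202, Fisher's exact test). At NRG2 +162.1 kb 2 BT474R libraries had a peak and no BT474 library did.

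**Figure D3:**
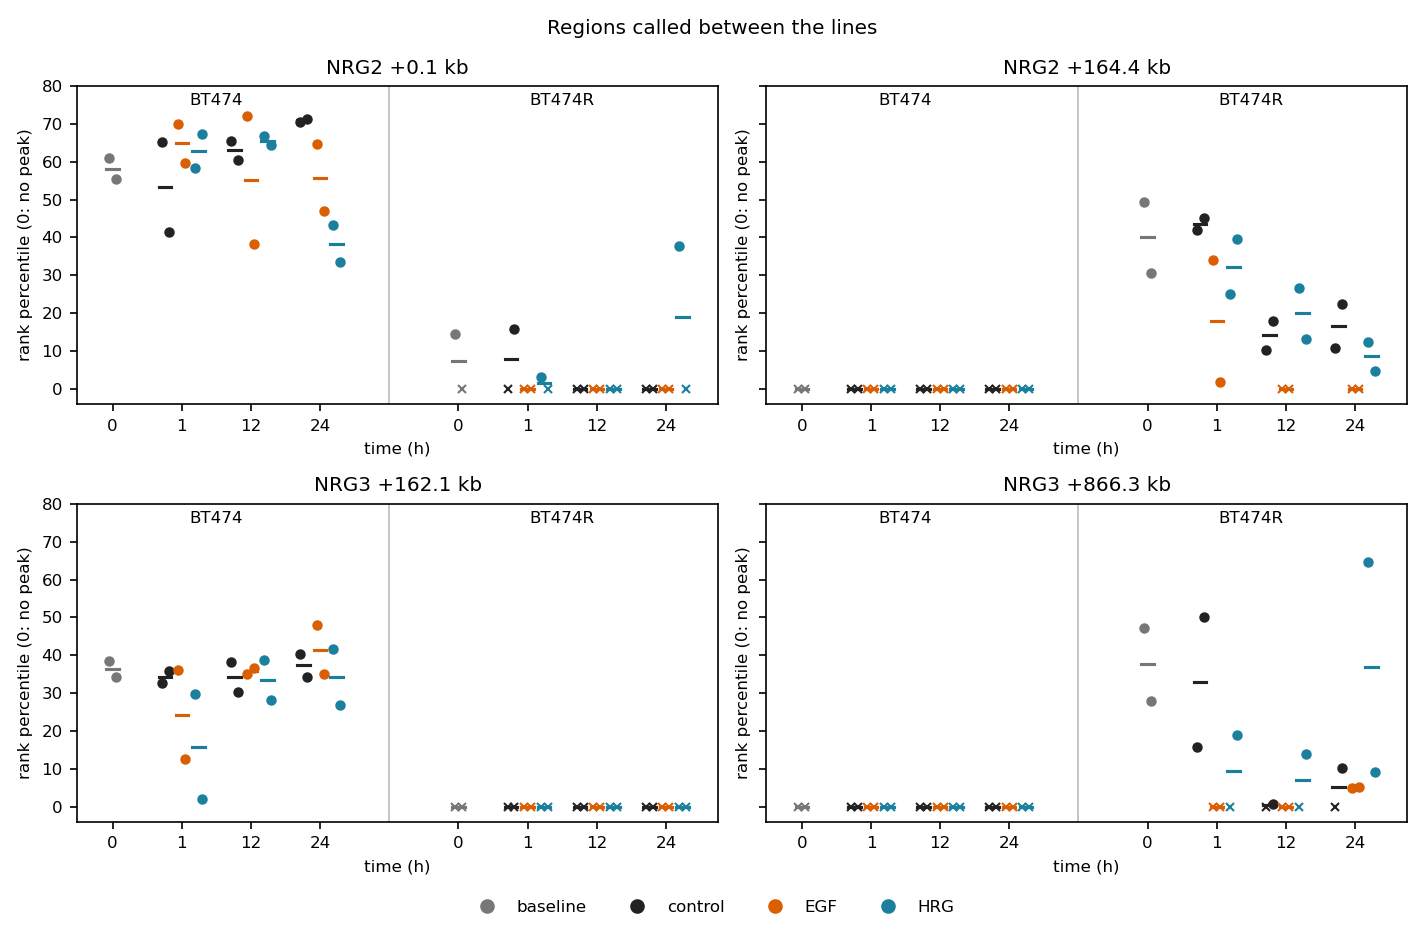
Rank percentile of the peak in every library (0 and a cross where no peak was called) at 4 regions called between the lines, by time in h, with color for the arm and a short bar for the mean of the 2 libraries of a group. NRG2 +0.1 kb and NRG3 +162.1 kb were filled in BT474, the first also in 4 BT474R libraries, and NRG2 +164.4 kb and NRG3 +866.3 kb were filled in BT474R alone.

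At NRG1, the gene of the added ligand, both regions lay in introns and most of their peaks came from BT474R at 1 h. NRG1 +695.3 kb (chr8:32334346-32334663) had a peak in 9 of 20 BT474R libraries and 1 of 20 BT474 libraries (Fisher's exact test, p = 0.00836, adjusted p = 0.0133), and it lay 113463 bp from the nearest NRG1 start. In baseline and control libraries alone the counts were 2 of 8 and 0 of 8 (Fisher's exact test, p = 0.467), and it was not among the regions with lists of equal length or with a score of at least 400. In BT474R the percentiles at 1 h were 2.05 and 12.0 in control, 32.4 and 17.3 after EGF, and 28.1 and 25.8 after HRG. At 12 h a peak was called in the HRG libraries alone, at 5.19 and 4.73, at 24 h in 1 HRG library at 2.02, and at baseline in neither library. NRG1 +714.6 kb (chr8:32353654-32354013) had a peak in the same 6 BT474R libraries of 1 h, at percentiles of 1.41 to 21.0, and in no other BT474R library. BT474 had 1 peak there, at 1.54 after HRG at 1 h. The counts of the lines did not reach an unadjusted p under 0.05 (Fisher's exact test, p = 0.0915, adjusted p = 0.112). The lists of the 6 BT474R libraries of 1 h held 47474 to 56494 peaks, against 32479 to 45808 at 12 h. The BT474R EGF libraries of 24 h, with 52126 and 51080 peaks, had no peak at either NRG1 region. The BT474R HRG library of 24 h with a peak at NRG1 +695.3 kb had 55289 peaks, and its replicate without that peak had 44351. The part of list length in this pattern was not tested.

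NRG4 +155.8 kb, the FBXO22 promoter, had the highest mean percentile of the 23 regions. It lay between 83.5 and 88.5 in BT474 and between 69.5 and 88.6 in BT474R, and the difference was -6.73 points (SE 1.28, limma adjusted p = 2.49e-05). The lowest BT474R values, 69.5 to 75.3, came from baseline replicate 2 and from libraries of 12 and 24 h.

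Each ligand was then compared with the control of the same time points, to ask whether the neuregulin loci responded to EGF or to HRG within a line. In BT474, a pair of NRG2 regions had a peak in more HRG than control libraries, and 1 of them, NRG2 +31.9 kb, was called. Later EGF and HRG libraries of BT474 had higher percentiles than controls at a pair of NRG3 introns. By Fisher's exact test (6 against 6 libraries) 1 of the 3 regions that could be called differed for HRG-BT474, against 24.7% of all regions that could be called. EGF-BT474 had 0 of 2 (19.0% of all regions), EGF-BT474R 0 of 4 (4.08%) and HRG-BT474R 0 of 3 (2.31%). None of these passed adjustment over all regions, which 6.46% of regions passed for EGF-BT474, 8.98% for HRG-BT474, and 0% in either BT474R comparison. By rank percentile with limma, 0 of 10 regions with a peak in every library passed in EGF-BT474 (11.7% of all regions). The count was 0 of 10 in HRG-BT474 (12.7%), 0 of 5 in EGF-BT474R (4.58%) and 0 of 6 in HRG-BT474R (0.00339%). At an unadjusted limma p under 0.05, EGF-BT474 had 2 of 10 regions (24.6% of all regions), HRG-BT474 had 1 of 10 (25.5%), EGF-BT474R had 1 of 5 (21.4%) and HRG-BT474R had 0 of 6 (15.5%). The NRG3 promoter was among them in BT474, at a difference of -4.54 points after EGF (SE 1.79, limma adjusted p = 0.151) and -2.61 after HRG (SE 1.07, limma adjusted p = 0.162), 2 comparisons that share their controls. The others were NRG3 +315.7 kb for EGF-BT474 and NRG3 +580.1 kb for EGF-BT474R, both described below.

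The percentiles with 0 for absent peaks were also compared by an exact permutation test within time points (216 arrangements, smallest two-sided p 0.00926). Of the neuregulin regions with a peak in at least 1 of the 12 libraries, 3 of 19 had an unadjusted p under 0.05 in EGF-BT474 (19.6% of all regions) and 4 of 19 in HRG-BT474 (21.5%). In BT474R the counts were 4 of 18 with EGF (15.4%) and 2 of 18 with HRG (12.2%). These shares were near the background. No region, neuregulin or other, passed adjustment over all regions in any of the 4 comparisons. With a smallest p of 0.00926, passing would need a large share of all regions at that value. The absence of passing regions thus says nothing about single regions. The values below are therefore given as unadjusted results.

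The region called for HRG-BT474 was NRG2 +31.9 kb (chr5:140011152-140011633), in the first part of the gene. Its percentiles after HRG were 6.17 and 25.1 at 1 h, 0 and 12.4 at 12 h, and 16.1 and 20.9 at 24 h. All 6 controls had no peak, so 5 of 6 HRG libraries stood above every control (Fisher's exact test, p = 0.0152, adjusted p = 0.0615). After EGF, 3 of 6 libraries had a weak peak, at 2.83, 4.45 and 4.33, 1 at each time. The HRG lists held 47571 and 49579 peaks at 1 h (control 48788 and 49195), 53484 and 52986 at 12 h (control 49386 and 49767) and 52425 and 52766 at 24 h (control 52331 and 50579). At 12 and 24 h both HRG lists were thus longer than both controls, and the part of list length in this call was not tested. Among peaks with a score of at least 400 no neuregulin region was called for HRG-BT474, and with lists of equal length NRG2 +31.9 kb was no longer among the regions. NRG2 +1.3 kb, beside the first promoter, had a peak in 5 of 6 HRG libraries (2.63 to 17.1) and in 1 of 6 controls, at 2.69 (Fisher's exact test, p = 0.0801, adjusted p = 0.259). It was called (p = 0.0152, Fisher's exact test) when replicate 1 of the 24 h control or replicate 2 of HRG at 24 h was left out. These were the only control with a peak and the only HRG library without one, so leaving either out could only widen the difference. NRG2 +1.3 kb was not among the regions with lists of equal length or with a score of at least 400. At the first promoter itself the HRG libraries of 24 h were at 43.2 and 33.5, against 70.4 and 71.4 in control, but the arms overlapped at 1 and 12 h. Over the 3 times the difference was -6.84 points (SE 7.15, limma adjusted p = 0.628).

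NRG3 +580.1 kb, the region that was strong in BT474R, also had higher percentiles in BT474 libraries given a ligand for 12 or 24 h than in their controls. In BT474 the controls were at 0 and 0 at 1 h, 0 and 24.6 at 12 h, and 2.36 and 0 at 24 h. EGF libraries were at 9.83 and 0, then 27.7 and 51.2, then 41.4 and 31.3, and HRG libraries at 0 and 10.7, then 34.6 and 40.4, then 44.9 and 55.3. At 12 and 24 h all 8 ligand libraries exceeded all 4 controls. Their lists were also longer than those of the controls of the same time, at 52135 to 56846 peaks against 49386 and 49767 at 12 h and 52425 to 56363 against 52331 and 50579 at 24 h. The part of list length in this order, here and at the next region, was not tested. The mean difference from control was 22.4 points for EGF (exact permutation p = 0.0278, adjusted p = 0.173) and 26.5 for HRG (exact permutation p = 0.0278, adjusted p = 0.155), and these 2 comparisons share their controls. In BT474R, where every library had a peak there, EGF libraries were at 71.2 and 71.9, then 35.8 and 35.8, then 42.7 and 36.5, against controls at 71.8 and 69.3, then 41.5 and 56.0, then 53.3 and 56.7. That difference was -9.11 points (limma adjusted p = 0.143). Whether the EGF effect differed between the lines at this region was not tested.

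NRG3 +786.0 kb (chr10:82661039-82661342) had a similar order in BT474. Controls were at 0 and 4.02 at 1 h, 7.63 and 13.4 at 12 h, and 9.35 and 0 at 24 h. EGF libraries were at 4.29 and 1.18, then 17.3 and 42.8, then 29.9 and 21.9 (difference 13.8, exact permutation p = 0.0185, adjusted p = 0.146). HRG libraries were at 0 and 8.72, then 23.4 and 23.8, then 20.8 and 37.6 (difference 13.3, exact permutation p = 0.0278, adjusted p = 0.155). As at NRG3 +580.1 kb, the arms overlapped at 1 h and did not at 12 and 24 h. The remaining region with an unadjusted p under 0.05 for EGF-BT474 was NRG3 +315.7 kb, at 61.8 to 75.2 after EGF (median 67.4) and 58.2 to 68.5 in control (median 62.3), a difference of 5.43 (exact permutation p = 0.0185, adjusted p = 0.146).

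In BT474R the clearest ligand difference was at NRG2 +164.4 kb, the region without a peak in BT474. Controls were at 41.8 and 45.1 at 1 h, 10.2 and 18.0 at 12 h, and 10.8 and 22.4 at 24 h. EGF libraries were at 33.9 and 1.90 at 1 h and had no peak in any of the 4 libraries of 12 and 24 h. At each time both EGF libraries lay under both controls. The counts, 2 of 6 after EGF and 6 of 6 in control, could not reach the threshold in Fisher's exact test. Leaving out either EGF library of 1 h gave 1 of 5 against 6 of 6 (p = 0.0152, Fisher's exact test). Those were the only EGF libraries with a peak, so leaving one out could only widen the difference. The mean difference was -18.7 points (exact permutation p = 0.00926, the smallest the design allows, adjusted p = 0.144). The EGF lists were shorter than those of the controls at 1 h (51503 and 47474 peaks against 56494 and 54256), lay between them at 12 h (38205 and 37476 against 32479 and 40331) and were longer at 24 h (52126 and 51080 against 41833 and 45799). After HRG the region had a peak in 6 of 6 libraries, at 4.68 to 39.6 (median 19.1). Baseline libraries were at 49.5 and 30.7.

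The other 3 regions of EGF-BT474R had a lower mean percentile in EGF-BT474R at an unadjusted p under 0.05. They were NRG3 +24.5 kb (difference -11.3, exact permutation p = 0.0278, adjusted p = 0.227), NRG3 +580.1 kb (difference -9.11, exact permutation p = 0.0463, adjusted p = 0.300) and NRG3 +1053.6 kb (difference -5.03, exact permutation p = 0.0278, adjusted p = 0.227). For HRG-BT474R, NRG1 +695.3 kb was higher by 8.63 points (exact permutation p = 0.0278, adjusted p = 0.314) and NRG3 +315.7 kb by 10.9 (exact permutation p = 0.0185, adjusted p = 0.296). At the latter, control libraries were at 38.1 and 34.2, then 0 and 0, then 0 and 3.56, and HRG libraries at 46.9 and 37.2, then 6.23 and 13.6, then 28.7 and 8.31. The HRG lists of BT474R held 52162 and 56334 peaks at 1 h (control 56494 and 54256). At 12 h they held 45808 and 42604 (control 32479 and 40331), and at 24 h 55289 and 44351 (control 41833 and 45799). The part of list length in these HRG differences was not tested. Each comparison stood on 6 libraries per arm.

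**Figure D4:**
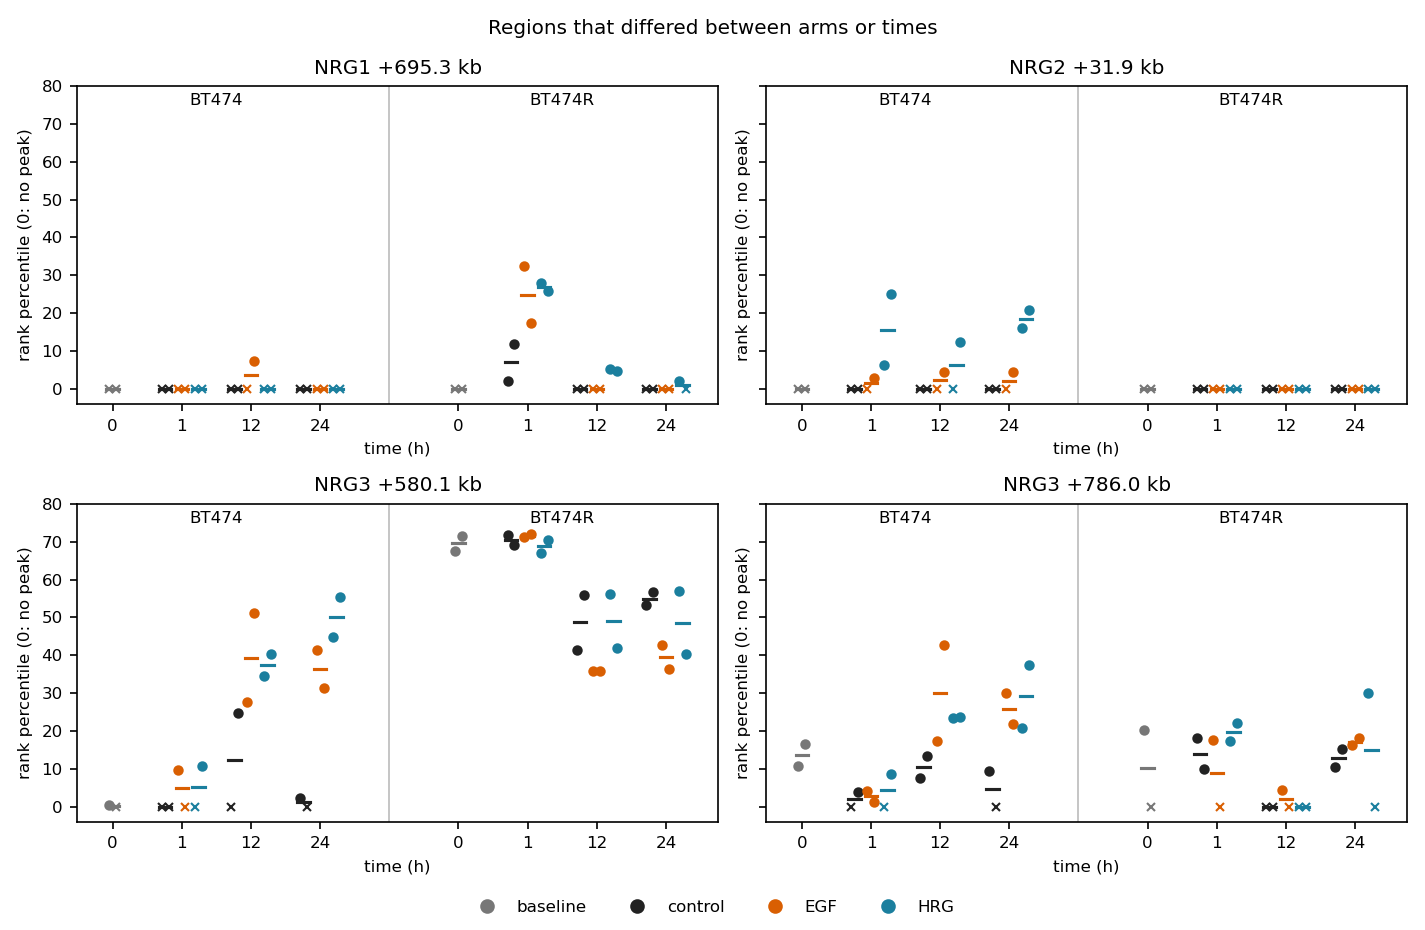
Rank percentile of the peak in every library (0 and a cross where no peak was called) at 4 regions that differed between arms or times, by time in h, with color for the arm and a short bar for the mean of the 2 libraries of a group. NRG1 +695.3 kb was filled mainly in BT474R at 1 h, NRG2 +31.9 kb in HRG-BT474, and at NRG3 +580.1 kb and NRG3 +786.0 kb the BT474 libraries given a ligand for 12 or 24 h lay above their controls.

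The ligand effects were compared between the lines at the 4 regions with a peak in every library. None passed the test, either for EGF (0.581% of all regions) or for HRG (0.138%). At the NRG3 promoter the EGF effect in BT474R exceeded that in BT474 by 2.89 points (SE 2.67, limma adjusted p = 0.762) and the HRG effect by 3.48 (SE 3.20, limma adjusted p = 0.660). No region had an unadjusted limma p under 0.05, against 12.2% of all regions for EGF and 10.9% for HRG. Within a single time point 2 libraries faced 2, for which an exact test allows no p under 0.333.

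The receptors and other partners of the neuregulins were read from promoter peaks of 29 genes of the pathway. Of these, 28 had a promoter peak in some library and 24 had one in all 40, the gene without one being EREG, which encodes epiregulin. Between the lines, 3 of the 29 genes had a promoter region with a peak in more BT474R libraries and 6 had one with a peak in fewer. Over all 14213 protein-coding genes with a promoter region the shares were 6.37% and 18.6%, and the pathway counts are too small to set apart from them. In the ligand comparisons none of the 29 had a called region, against 0.535% (EGF) and 0.584% (HRG) of those genes in BT474, and 0.134% and 0.0633% in BT474R. Among the receptors, both promoter regions of ERBB4, the receptor that all 4 neuregulins bind, had a peak in 20 of 20 BT474 libraries, and in BT474R in 6 of 20 (Fisher's exact test, adjusted p = 1.19e-05) and 0 of 20 (Fisher's exact test, adjusted p = 1.91e-10). ERBB3, the other neuregulin receptor, had its strongest promoter peak in all 40 libraries, and 2 other promoter regions had a peak in 20 of 20 BT474R libraries against 8 and 10 of 20 BT474 libraries (Fisher's exact test, adjusted p = 0.000125 and p = 0.000953). A region at the ERBB2 promoter had a peak in 20 of 20 BT474R and 15 of 20 BT474 libraries (Fisher's exact test, adjusted p = 0.0597). EGFR had a promoter peak in all 40 libraries.

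Among the other EGF-family ligands, a promoter region of BTC (betacellulin) had a peak in 20 of 20 BT474 and 0 of 20 BT474R libraries (Fisher's exact test, adjusted p = 1.91e-10), and EPGN (epigen) in 16 of 20 and 5 of 20 (Fisher's exact test, adjusted p = 0.00244). The other BTC promoter region had a peak in all 40 libraries. Of the 4 proteases that can release neuregulins, ADAM19 had a promoter peak in 15 of 20 BT474 and 0 of 20 BT474R libraries (Fisher's exact test, adjusted p = 3.16e-06), while ADAM10, ADAM17 and BACE1 had one in all 40. LRIG1, which encodes an inhibitor of ERBB receptors, had a promoter region with a peak in 20 of 20 BT474 and 0 of 20 BT474R libraries (Fisher's exact test, adjusted p = 1.91e-10), and another with a peak in all 40. Of the genes downstream of the receptors, PIK3R1 (a regulatory subunit of PI3K) had a promoter region with a peak in 6 of 20 BT474R and 0 of 20 BT474 libraries, and the kinase gene AKT1 in 0 of 20 and 6 of 20 (Fisher's exact test, adjusted p = 0.0287 for each). These regions were weak, with mean percentiles of 3.16 in BT474R (PIK3R1) and 2.12 in BT474 (AKT1). Both genes had another promoter region with a peak in all 40 libraries. For comparison, NRG2 had a promoter peak of any kind in 20 of 20 BT474 and 5 of 20 BT474R libraries.

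The genes whose promoter percentile followed that of the neuregulins most closely were found by Pearson's r over the means of the 20 groups, across 14210 protein-coding genes. For NRG2 +0.1 kb they were LRRC4C (r = 0.991), AFF3 (r = 0.987) and ZNF578 (r = 0.987), with peaks in 20 of 20 BT474 libraries and in 8, 1 and 5 of 20 BT474R libraries. At all of these genes the lines differed in the same direction as at NRG2 +0.1 kb, and the 20 means also share their list lengths. No correlation was computed within a line, and the parts of line and list length were not tested. For NRG3 -0.3 kb the closest genes were C9orf64 (r = 0.949), CEBPG (r = 0.945) and CABP1 (r = 0.938), all with a peak in every library. The part of list length was not tested there either.

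A set of 6 motifs was searched on both strands within 100 bp of each summit, where N is any base. The AP-1 motif, TGANTCA, matched 4 of 23 neuregulin regions, against 16.3% of all 71600 regions. The AP-2 motif, GCCNNNGGC, matched 3 (16.7% of all regions). The GATA motif, AGATAA, matched 3 (8.93%), and the forkhead motif, TGTTTAC, matched 2 (8.50%). The grainyhead motif, AACCGGTT, and the palindromic estrogen response element matched 0 (0.325% and 0.0405%). The AP-1 matches were in NRG1 +695.3 kb, NRG2 +1.3 kb, NRG2 +31.9 kb and NRG3 +407.8 kb. Of the 4 regions with a peak in 5 of 6 HRG-BT474 libraries, NRG2 +1.3 kb and NRG2 +31.9 kb held one, and NRG3 +580.1 kb and NRG3 +786.0 kb did not. The regions with a peak in all 6 HRG-BT474 libraries held no AP-1 match. Neither BT474R-only region shown above held any of the 6. In the printed promoter sequence, NRG2 promoter 1 held a GATA match (9.17% of 35116 RefSeq promoters of the same 250 bases) and NRG2 promoter 2 and the NRG3 promoter an AP-2 match (19.8%). The AP-2 match of NRG2 promoter 2 lay outside the open region NRG2 +139.1 kb. No matches overlapped in the printed sequences. The GC content within 100 bp of the summit ran from 35.8% (NRG1 +714.6 kb) to 83.6% (NRG2 +195.0 kb), with a median of 50.2% against 51.7% over all regions.

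The cells showed the chromatin of luminal breast epithelium, with promoter peaks in all 40 libraries at 8 of 8 luminal markers, KRT8, KRT18, KRT19, EPCAM, CDH1, GATA3, FOXA1 and ERBB2. Of the markers of other cell types reported here, PTPRC, CD3E, COL1A2, PDGFRA and PECAM1 had no promoter peak in any library, and COL1A1 and CDH5 had one in all 40.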

How the data were processed

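ATAC-seq was performed in duplicate on BT474 and BT474R cells at baseline and after EGF, HRG or vehicle. Per the study's methods and the submitters' processing notes, the authors trimmed reads with Trim Galore 0.6.6, aligned them to GRCh38 with BBMap and called peaks in each library with Genrich. Mitochondrial reads and blacklisted regions were removed and replicates were not pooled. Genrich options, including its ATAC mode, are not stated in the sources used, and they can change peak width and number. The authors deposited a signal for each peak, with a minimum of 200 in all lists, by which peaks were ranked (it was taken to be the area under Genrich's significance curve, which the sources used here do not state), and also a −log10 p and a −log10 q (deposited values that were not used in any test). The study's own count-based differential analysis was not repeated, because read counts were not analysed here.

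Peaks on chromosomes 1 to 22 and X were used, and 0 regions ran past the end of their GRCh38 chromosome. Genes were taken from GENCODE release 44. Presence was compared with Fisher's exact test on all 71600 regions, two-sided, with Benjamini-Hochberg adjustment over the regions whose totals allow a p under 0.05, and called meant an unadjusted p under 0.05. Rank percentiles were compared with limma 3.58.1 in R 4.3.3 on regions with a peak in every library compared, with time as a covariate for ligands and condition for lines, and called meant an adjusted p under 0.05. Exact permutation tests ran within time points on percentiles with 0 for absent peaks, with adjustment over all regions with a peak in at least 1 of the 12 libraries. The tests were checked on simulated data. Groups came from the sample labels, and where separate cultures are not stated per library, p-values measure only the spread between these libraries.

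The members and the lists of genes and motifs were chosen with earlier results of these data known. Regions named with values were the promoter regions of the genes, every region called in any comparison and the strongest other region of each gene. Beyond this rule, NRG1 +714.6 kb, NRG2 +162.1 kb and the NRG3 regions +24.5 kb, +407.8 kb, +786.0 kb, +808.9 kb and +1063.3 kb were named after their values were seen. A marker gene of another cell type and the sequence of an intronic region are not reported here. Alternatives were lists cut to 32479 peaks each, a score of at least 400, peaks trimmed to 200 bp on each side of the summit, regions in at least 4 lists, the gene body alone, a centred log2 score (computed from the deposited signal), a replicate block, and each library left out in turn. Scripts ran in Python 3.11.15 with scipy 1.17.1, pandas 2.3.3, numpy 2.4.6 and pysam 0.24.0, and plots were drawn in matplotlib 3.10.9.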

Additional observations from a re-analysis of the deposited data

How the results depend on the processing

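With equal numbers of top peaks the presence count between the lines was 7 in place of 12 and the rank count 1 in place of 4. With a score of at least 400 the presence count was 8 and the rank count 2. The presence calls that this score added were NRG2 +74.4 kb (9 of 20 BT474R and 20 of 20 BT474 libraries), NRG2 +195.0 kb (15 and 20), and NRG3 +24.5 kb and NRG3 +1063.3 kb (5 and 16 each). NRG2 +74.4 kb and NRG2 +195.0 kb could not be compared between the lines by rank in either setting. Both settings leave fewer regions, 14 and 15 in place of 23 for presence and 2 in place of 4 for rank, so the rank calls were 1 of 2 and 2 of 2. In baseline and control libraries alone the presence count was 7. For HRG-BT474 the presence count was 0 with a score of at least 400. It was 1 with equal top peaks, but the region was NRG3 +24.5 kb (1 of 6 HRG and 6 of 6 control libraries), not NRG2 +31.9 kb. Whether libraries with the same replicate number belong together is not stated in the labels, and the main tests did not pair them. The correlation of same-numbered deviations was over 0.1 in 3 of 18 arm pairs (-0.204 to 0.284) and in 1 of 10 line pairs (-0.0293 to 0.292). For presence the replicate block was an exact sign test of same-numbered libraries, and with it the HRG-BT474 count was 0. NRG2 +31.9 kb had p = 0.0625 (exact sign test), the smallest that 5 of 6 against 0 of 6 libraries allows. That count therefore cannot tell whether pairing matters. With a block the line counts were 11 (presence) and 4 (rank), and no other count changed.

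Leaving out each library in turn gave presence counts of 12 to 13 between the lines, 1 to 2 for HRG-BT474, 0 to 1 for EGF-BT474R and 0 to 0 for EGF-BT474 and HRG-BT474R. The rank counts were 4 to 5 between the lines, 0 to 1 for EGF-BT474 and 0 to 0 for the other ligand comparisons. The added presence calls were NRG1 +714.6 kb between the lines, NRG2 +1.3 kb or NRG3 +588.6 kb (0 of 6 HRG and 4 of 5 control libraries) for HRG-BT474, and NRG2 +164.4 kb for EGF-BT474R. Each came from leaving out a library that went against the difference. For EGF-BT474, NRG3 +24.5 kb was called without replicate 2 of EGF at 1 h (6.48 points, limma adjusted p = 0.0394) and NRG3 -0.3 kb without replicate 1 of EGF at 12 h (-6.03 points, limma adjusted p = 0.0179). No result changed direction while called, under any alternative run. The comparison of ligand effects between lines was computed in 1 way only. Depth was unknown, peaks under a score of 200 were not listed, and 6 libraries per arm leave few regions that Fisher's test can call.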
